A study of Schizosaccharomyces pombe with 6 samples.

Results

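The septin genes of fission yeast (Schizosaccharomyces pombe) were followed in growing cells with and without a working fkh2 gene. The members were the 7 genes spn1 to spn7, found by their symbol in the annotation of an Affymetrix yeast array. Each had 1 probe set, so the family took up 7 of the 2936 S. pombe probe sets tested, which cover 2932 genes. A probe set annotated with the capital symbol SPN1 belonged to no S. pombe gene and was left out. In assembly ASM294v3, spn1, spn2, spn4 and spn5 lie on chromosome I, spn3 and spn7 on chromosome II and spn6 on chromosome III, and all are annotated as protein-coding.

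Total RNA came from mid-log cultures in rich medium, and 6 arrays fell into 3 groups of 2. These were wild type (strain CG 209), fkh2delta (strain CG 116), which lacks the forkhead transcription factor gene fkh2, and fkh2-S2A, a mutant allele of fkh2 labelled with the same strain name as wild type. What the S2A change is in the protein is left unexplained by the labels. They are also silent on whether paired arrays of one genotype had their own cultures, and p-values therefore cover array-to-array spread that could be technical. Strain name and fkh2 deletion cannot be told apart in this design.

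Septins are GTP-binding proteins that join into filaments and mark places where a membrane or wall is remodelled. In dividing fission yeast, Spn1, Spn2, Spn3 and Spn4 form a ring at the division site, which is known to help guide the enzymes that dissolve the septum between daughter cells. In sporulation a different set, Spn2 with Spn5, Spn6 and Spn7, lines the forespore membrane that encloses each nucleus and orients its growth. The first 4 genes are called vegetative here and the last 3 meiotic, although Spn2 serves in both structures. Fkh2 acts in mitotic transcription, and a related forkhead factor, Mei4, drives many genes of the middle phase of meiosis.

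Levels are deposited log2 values of 1 probe set and are compared between groups, not between genes. Background was set per array, at the 95th percentile of 2601 annotated probe sets that match no S. pombe gene, and lay between 5.17 and 5.35. Changes are log2 differences of group means ± the standard error of a limma fit over all probe sets. A gene is called higher or lower at an adjusted p (Benjamini-Hochberg over 2936 probe sets) below 0.05. As a check of the deletion label, fkh2 itself read 7.53 and 7.39 on the wild-type arrays but only 4.34 and 4.05 with the deletion, below background both times. It was 7.47 and 7.76 in fkh2-S2A, so this gene does not tell the fkh2-S2A label from the wild-type label. The gene ura4, outside the lists used below, also set the fkh2delta strain apart. Its mean was 12.68 in wild type and 12.84 in fkh2-S2A but 5.79 in fkh2delta. All comparisons with fkh2delta carry this difference, and its part in their results was not tested. The mean 3′ minus 5′ difference of 6 control genes, a measure of RNA quality, was 1.53 and 1.61 in fkh2delta against 1.24 to 1.35 on the other 4 arrays; its part in the results on fkh2delta was not tested. A dependence on gene length differed as well, with slopes of 0.070 and 0.11 per doubling of length in fkh2-S2A and from -0.073 to -0.010 on the other 4 arrays.

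In fkh2delta, 5 of the 7 septin genes were higher than in wild type by limma's test and 0 were lower (0 also at an unadjusted p below 0.05). The meiotic genes spn6 and spn7 rose most, the vegetative genes spn4, spn1 and spn2 rose by less than 2-fold, and spn3 and spn5 did not pass. Over all probe sets 40.4% were called higher and 23.6% lower, 64.0% in all, so that calls were common in this comparison. The arrays of the 2 groups did not overlap for 7 of 7 septins, against 87.1% of all probe sets. The split of all calls was 1186 higher and 693 lower, and it became 979 and 908 after centring each array on its median and 965 and 893 after quantile normalization. Taken over every probe set tested, the median difference was 0.16 as deposited and 0.033 after median centring; median-centred changes are given below beside those as deposited.

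**Figure D1:**
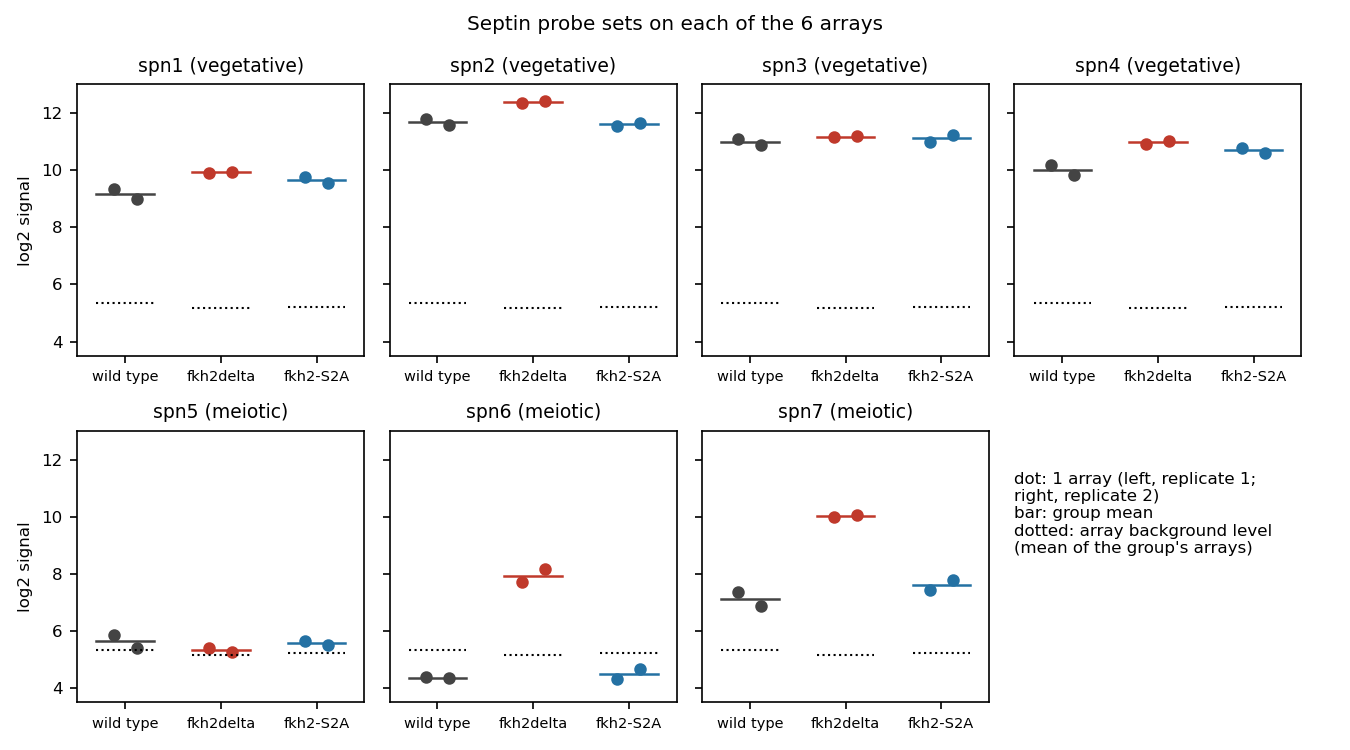
Log2 signal of the 7 septin probe sets on each of the 6 arrays, with a bar at each group mean and a dotted line at the mean background level of the group's arrays. The fkh2delta arrays stand highest for spn6 and spn7, and spn6 lies below the dotted line in wild type and fkh2-S2A.

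Among the meiotic septins, spn6 went from below background to a clear signal. Its values were 4.38 and 4.35 in wild type, 7.73 and 8.16 in fkh2delta and 4.32 and 4.66 in fkh2-S2A. The fkh2delta arrays alone were above background, and they overlapped with neither of the other groups. Since wild type had only a bound, spn6 was at least 6.04-fold higher in fkh2delta (adjusted p = 7.62e-07, limma, n = 2 arrays per group). That bound sets the mean of the bright arrays against the background level of the dim ones. The fitted difference of 3.58 (3.45 after median centring) is no measure of size with wild type below background, and no rank is given.

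The second meiotic septin that rose, spn7, was already measurable in wild type. Its values were 7.38 and 6.88 in wild type, 10.0 and 10.04 in fkh2delta and 7.45 and 7.80 in fkh2-S2A. Every group was above background, and the fkh2delta arrays were the highest with no overlap. The rise was 2.90 ± 0.17, or 7.45-fold (adjusted p = 3.48e-06, limma), and it ranked 17 of 2936. After median centring it was 2.77.

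The third meiotic septin, spn5, did not rise with the other meiotic septins. Its values were 5.87 and 5.42 in wild type, 5.39 and 5.28 in fkh2delta and 5.64 and 5.50 in fkh2-S2A, all above the background of their arrays but close to it. The 2 fkh2delta arrays were the lowest of the 6. The difference from wild type was -0.31 ± 0.15 (adjusted p = 0.0913, limma), with a 95% interval from -0.64 to 0.023. It passed as lower after median centring (-0.43, adjusted p = 0.0195), after quantile normalization (-0.96, adjusted p = 0.000441) and without wild-type replicate 2 (-0.53, adjusted p = 0.011), but shrank to -0.084 (adjusted p = 0.57) without wild-type replicate 1. No setting tried gave a positive change, and for a probe set this near background the size is uncertain.

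Among the vegetative septins the highest rise in fkh2delta was that of spn4. Its values were 10.19 and 9.85 in wild type, 10.92 and 11.04 in fkh2delta and 10.79 and 10.62 in fkh2-S2A. Both mutant groups lay above wild type, and fkh2delta lay above fkh2-S2A without overlap. The rise in fkh2delta was 0.96 ± 0.13, or 1.94-fold (adjusted p = 0.000279, limma), and 0.83 after median centring. It ranked 267 of 2936.

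The gene spn1 had the same order of groups. Its values were 9.34 and 8.99 in wild type, 9.92 and 9.95 in fkh2delta and 9.77 and 9.54 in fkh2-S2A. No 2 groups overlapped. The rise in fkh2delta was 0.77 ± 0.13, or 1.71-fold (adjusted p = 0.000957, limma), and 0.65 after median centring.

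The septin shared by both structures, spn2, was higher in fkh2delta alone. Its values were 11.81 and 11.57 in wild type, 12.37 and 12.41 in fkh2delta and 11.55 and 11.67 in fkh2-S2A. Wild type and fkh2-S2A overlapped, and both lay below fkh2delta. The rise in fkh2delta was 0.70 ± 0.11, or 1.63-fold (adjusted p = 0.000581, limma), and 0.58 after median centring. Its rank of 521 of 2936 was nearer to those of spn1, which ranked 433, and spn4 than to that of spn7.

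The remaining vegetative septin, spn3, stayed within a narrow range. Its values were 11.09 and 10.89 in wild type, 11.16 and 11.19 in fkh2delta and 11.0 and 11.22 in fkh2-S2A. The fkh2-S2A arrays overlapped both other groups, and fkh2delta lay just above wild type. The difference of fkh2delta from wild type was 0.18 ± 0.11 (adjusted p = 0.18, limma), with a 95% interval from -0.074 to 0.44, so a rise as large as that of spn1, spn2 or spn4 lay outside it.

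Set side by side, the vegetative septins had a median change of 0.74 in fkh2delta with 3 of 4 called higher. The meiotic septins had a median of 2.90, or 2.59 with spn6 at its bound, with 2 of 3 called higher. The median over all probe sets was 0.16. The split between the classes was not clean, since the lowest change of the family was that of the meiotic spn5. The difference between the classes was not tested. All 7 septins read higher on wild-type replicate 1 than on replicate 2, while 54.0% of all probe sets did. Without wild-type replicate 1 the vegetative median was 0.88, and without replicate 2 it was 0.59, with the calls of spn1, spn2, spn4, spn6 and spn7 unchanged in both fits.

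**Figure D2:**
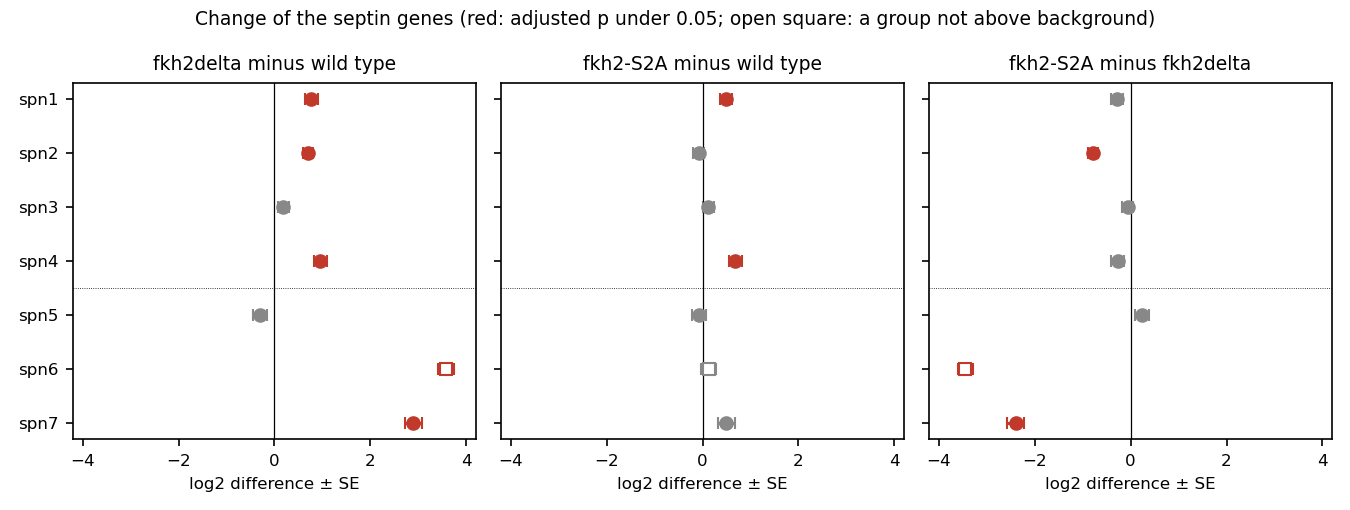
Log2 difference ± SE of each septin gene in the 3 comparisons, with vegetative septins above the dotted line and meiotic septins below it; red points passed limma's test. Open squares, as for spn6, had a group not above background. In fkh2delta spn7 changed by 2.90 and the called vegetative septins by 0.70 to 0.96. The fitted 3.58 drawn for spn6 is no measure of size, and the bound was at least 6.04-fold. The called genes in fkh2-S2A are spn1 and spn4.

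Genes that work with the septin ring did not move as one in fkh2delta. Of 13 genes listed for the ring, the contractile machinery beneath it and cell separation, 11 were measured, and 4 rose, 6 fell and gef3, whose product binds septins, did not pass (-0.10 ± 0.10; -0.48 with adjusted p = 0.00969 after quantile normalization), against 40.4% and 23.6% of all probe sets. The list's median was -0.53. The genes agn1 and cfh4 were not analysed here.

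The falls were led by genes of cell separation. The endoglucanase gene eng1, whose product digests the septum, read 11.93 and 12.13 in wild type, 10.57 and 10.5 in fkh2delta and 11.82 and 12.04 in fkh2-S2A. It fell by 1.49 ± 0.11 in fkh2delta (adjusted p = 1.66e-05, limma). The gene mid2, which encodes an anillin-like protein known to stabilise the septin ring, read 12.28 and 12.33 in wild type, 11.01 and 10.83 in fkh2delta and 12.06 and 12.2 in fkh2-S2A. It fell by 1.38 ± 0.11 (adjusted p = 1.66e-05, limma), so the gene for this partner of the ring was lower while spn1, spn2 and spn4 were higher. The gene adg1 fell by 1.28 ± 0.10, and adg2 (-1.21 ± 0.14), adg3 (-0.65 ± 0.20) and rgf3 (-0.53 ± 0.18) completed the falls.

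The rises in that list were in genes of the contractile ring and its regulators. The F-BAR gene cdc15 read 9.51 and 9.45 in wild type, 10.66 and 10.76 in fkh2delta and 9.54 and 9.73 in fkh2-S2A, a rise of 1.22 ± 0.10 in fkh2delta (adjusted p = 2.6e-05, limma). The paxillin-like gene pxl1 rose by 1.09 ± 0.11, the phosphatase subunit gene par1 by 0.63 ± 0.10 and the anillin-like gene mid1 by 0.56 ± 0.11. The values of adg2, adg3, rgf3, pxl1, par1, mid1 and gef3 are named to complete the list, after their values were seen. Over the 16 other settings 8 of these 10 calls were kept. Those of rgf3 and adg3 were lost without wild-type replicate 2 (-0.37 and -0.36, adjusted p = 0.185 and 0.155) and without fkh2delta replicate 1, and that of rgf3 also without fkh2delta replicate 2.

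**Figure D3:**
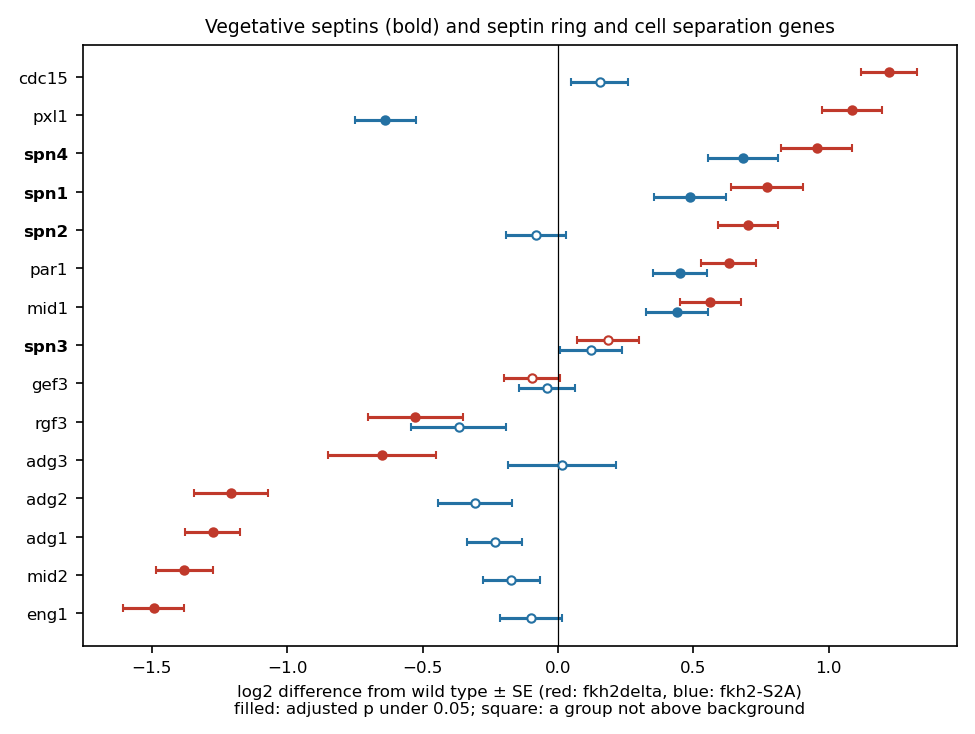
Log2 difference from wild type ± SE for the vegetative septins (bold) and 11 septin ring and cell separation genes, in fkh2delta (red) and fkh2-S2A (blue), ordered by the change in fkh2delta; filled points passed limma's test. The genes eng1, mid2, adg1 and adg2 lie at or below -1.21 in fkh2delta, while spn1, spn2 and spn4 lie among the contractile ring genes.

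The meiotic septins were set beside genes of the membrane they work on. Of 18 forespore membrane and spore wall genes 14 were measured, and in fkh2delta 6 were called higher and 3 lower, against 40.4% and 23.6% of all probe sets, with a median of 0.16, the same as over all probe sets. The higher share was thus close to the background. After quantile normalization 3 were higher and 4 lower, and without wild-type replicate 2 there were 4 higher and 1 lower. Taking 1 gene at its bound, and giving 0 to 1 gene that was dim in both groups, the median was 0.041. The leading-edge gene meu14, whose product sits at the opening of the forespore membrane, read 7.14 and 7.12 in wild type, 12.43 and 12.54 in fkh2delta and 6.75 and 6.71 in fkh2-S2A. It rose by 5.35 ± 0.09 (adjusted p = 4.3e-09, limma). The spindle pole body gene spo15 rose by 1.22 ± 0.15 and the spore wall glucan synthase gene bgs2 by 0.81 ± 0.14. The kinase gene mug27, not above background in wild type, was at least 1.34-fold higher, a call that was lost after quantile normalization (-0.0042). The 6 higher calls also hold fsv1 and spo4, the latter not above background in either group. Both calls were lost after median centring (adjusted p = 0.227 and 0.239, limma). The 3 lower calls were its3 (-0.65 ± 0.14), spo3 (-0.55 ± 0.14) and agn2 (-0.30 ± 0.105), all above background. Over the 16 other settings the call of its3 was kept, while those of spo3 and agn2 were lost in some. The genes fsv1, spo4, its3, spo3 and agn2 are named here after their values were seen.

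The list of meiotic regulators, in which mcp4 is only loosely placed, was also mixed. Of its 11 genes 3 rose and 3 fell in fkh2delta, against 40.4% and 23.6% of all probe sets. Quantile normalization turned this to 2 higher and 6 lower, and median centring to 3 and 5. The rises were mcp4 (3.0 ± 0.11), mei2 (2.19 ± 0.12), which encodes the RNA-binding switch of meiotic entry, and the kinase gene mde3 (at least 1.60-fold, a call lost after quantile normalization with adjusted p = 0.0621). The deleted fkh2 was the lowest of the list (at least 4.86-fold). The falls besides fkh2 were the forkhead gene sep1 (-0.79) and ste11 (-0.77), which encodes the master factor of sexual development; these 2 were named after their values were seen. The meiotic forkhead gene mei4 read 5.22 and 5.44 in wild type against 5.72 and 5.55 in fkh2delta, close to background, a difference of 0.31 ± 0.13 that did not pass (adjusted p = 0.0673, limma) and that quantile normalization turned to -0.49 (adjusted p = 0.00994).

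**Figure D4:**
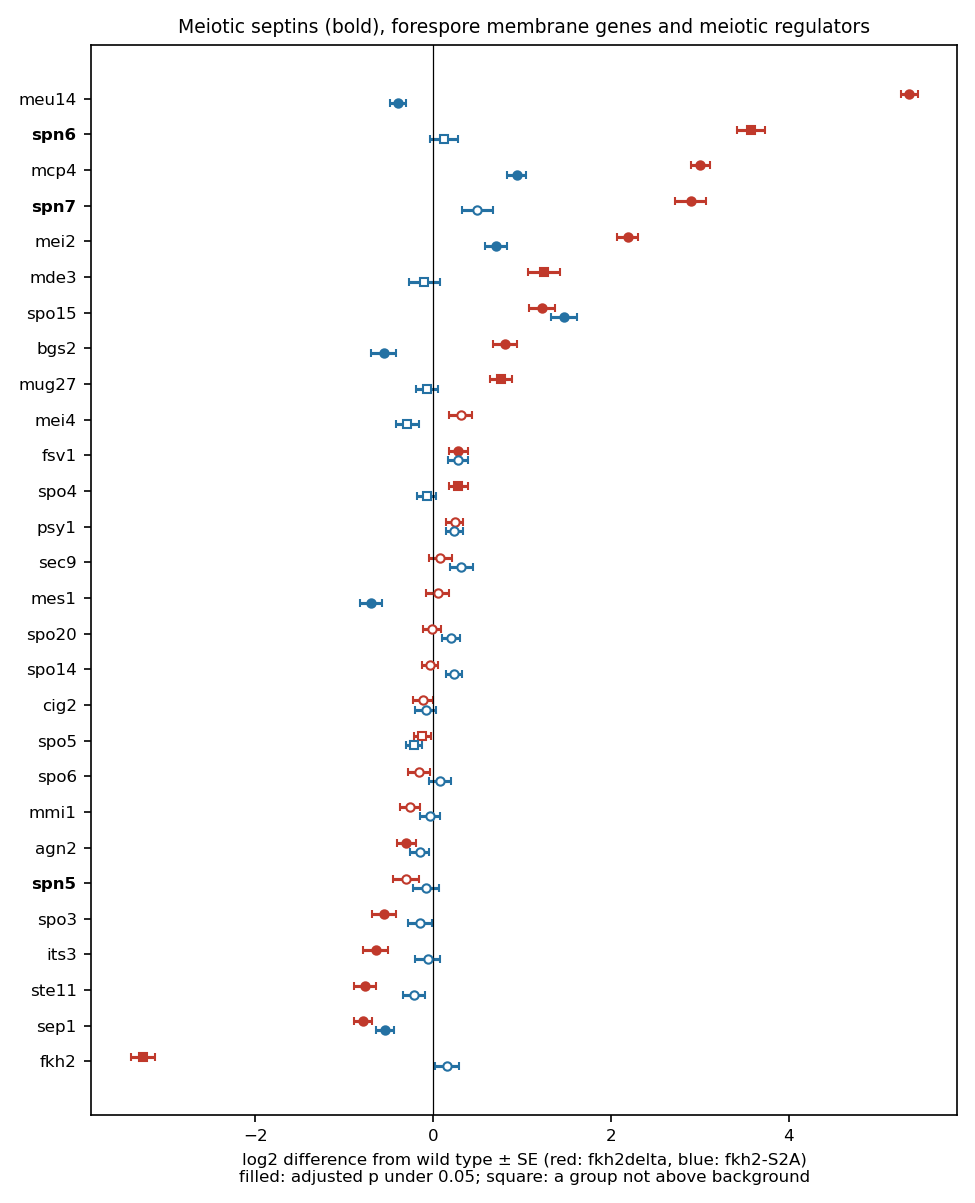
Log2 difference from wild type ± SE in fkh2delta (red) and fkh2-S2A (blue). The genes are the meiotic septins (bold), 14 forespore membrane genes and 11 genes listed as meiotic regulators. Filled points passed limma's test and squares had a group not above background. In fkh2delta spn6 and spn7 lie near meu14 and mcp4 at the top, and spn5 lies among genes that changed little or fell.

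Markers of mating and meiotic cells were mixed in fkh2delta. Of 21 mating-type and early meiotic markers 6 rose and 4 fell, with a median of -0.038, against 40.4% higher and 23.6% lower over all probe sets. The split was 5 higher and 12 lower after quantile normalization, 6 and 6 after median centring or removal of the length trend, and 6 and 1 without wild-type replicate 2. The rises were led by the recombinase gene dmc1 (3.08 ± 0.17), the linear-element gene rec10 (2.24 ± 0.12), meu13 (at least 2.31-fold) and rec11 (at least 1.64-fold). The 4 falls were mam3 (-0.655), sxa1 (-0.374), map3 (-0.288) and rec7 (-0.279), the last below background. These 4 are named here after their values were seen. Over the 16 other settings the call of mam3 was kept, while those of sxa1, map3 and rec7 were lost in some. Of the 10 early meiotic markers 3 were above background on each wild-type array and 6 on each fkh2delta array, and their mean level went from 5.01 and 5.07 to 5.80 and 5.89. Of these early markers, mei3, rec8, rec7 and hop1 were not above background in any group. The 7 M-cell markers had a mean level of 8.33 and 8.49 in wild type against 8.22 and 8.38 in fkh2delta, and the 4 P-cell markers 9.14 and 9.21 against 9.11 and 9.12. In such cultures a change in the number of cells of one kind cannot be told apart from a change of RNA per cell, and the part of these markers in the rises of spn6 and spn7 was not tested.

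In fkh2-S2A, 2 of the 7 septin genes were called higher than in wild type and 0 lower by limma (0 lower also at an unadjusted p below 0.05), against 23.5% and 9.84% of all probe sets, 33.3% in all. The arrays did not overlap for 3 of 7 septins, against 67.1% of all probe sets. Both were vegetative. The split of all calls in this comparison, 689 higher and 289 lower, became 560 and 498 after median centring and 442 and 422 after quantile normalization. This comparison uses the same wild-type arrays as the one above.

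The gene spn4 rose by 0.68 ± 0.13 in fkh2-S2A, or 1.61-fold (adjusted p = 0.00574, limma), and spn1 by 0.49 ± 0.13, or 1.40-fold (adjusted p = 0.0234, limma). After median centring these rises were 0.60 and 0.41. Neither gene passed without wild-type replicate 2, where spn4 changed by 0.51 (adjusted p = 0.0518, limma) and spn1 by 0.32 (adjusted p = 0.166, limma). Then 0 of 7 septins passed in limma (2 higher and 1 lower at an unadjusted p below 0.05), and 287 of all probe sets in place of 978. The call of spn1 was also lost after quantile normalization (0.34, adjusted p = 0.0892) and without fkh2-S2A replicate 1 (0.38, adjusted p = 0.113).

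The shared septin spn2 differed from wild type by -0.081 ± 0.11 in fkh2-S2A (adjusted p = 0.622, limma; 95% interval -0.33 to 0.17), and spn3 by 0.12 ± 0.11 (adjusted p = 0.45). Both intervals leave out a rise of the size seen for spn2 in fkh2delta. The meiotic spn7 was 0.50 ± 0.17 higher with no overlap of the arrays, and just missed the threshold (adjusted p = 0.0523, limma). It passed in 4 of 16 other settings, among them removal of the length trend (adjusted p = 0.0488) and a mean-variance trend (adjusted p = 0.0129), and was 0.19 after quantile normalization (adjusted p = 0.324). The meiotic spn6 was not above background in either group, so no fold is given, and spn5 differed by -0.074 ± 0.15 (adjusted p = 0.734). The median change was 0.31 for the vegetative septins and 0.13 for the meiotic septins, or 0 for the meiotic septins with spn6 set to 0, against 0.041 over all probe sets.

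The lists in fkh2-S2A stand against 23.5% of all probe sets called higher and 9.84% lower, and no difference between the mutants in how far a list moved was tested. Of the 11 measured septin ring and cell separation genes 2 rose, par1 (0.45 ± 0.10) and mid1 (0.44 ± 0.11), and pxl1 fell (-0.64 ± 0.11). Median centring added 3 lower calls. Next in size was rgf3 (-0.37 ± 0.18, adjusted p = 0.14, limma), which did not pass as deposited. It passed as lower after quantile normalization (adjusted p = 0.0411), median centring (0.0415) and removal of the length trend (0.0302), and it ran from -0.64 without fkh2-S2A replicate 2 to -0.090 without fkh2-S2A replicate 1. The cell separation genes eng1 (-0.098 ± 0.11) and mid2 (-0.17 ± 0.11), low in fkh2delta, did not pass in fkh2-S2A. The fkh2-S2A arrays overlapped wild type for eng1 but lay below it for mid2. Of the others low in fkh2delta, adg1 (-0.23 ± 0.10) and adg2 (-0.31 ± 0.14) did not pass as deposited. Both passed as lower after median centring (adjusted p = 0.0333 and 0.0372, limma). The gene adg3 differed by 0.016 ± 0.20. These adg genes are named here after their values were seen.

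Of the 14 measured forespore membrane genes spo15 rose (1.47 ± 0.15), while bgs2 (-0.56 ± 0.14) and meu14 (-0.40 ± 0.09) fell. The vesicle fusion gene sec9 had the next largest difference (0.32 ± 0.13, adjusted p = 0.0894, limma) and did not pass. Of the 11 genes listed as regulators mcp4 (0.94 ± 0.11) and mei2 (0.71 ± 0.12) rose, and mes1 (-0.70 ± 0.13) and sep1 (-0.54 ± 0.10) fell. Of the 21 mating and early meiotic markers 2 rose and 4 fell, with rec10 (0.70 ± 0.12), mam3 (-0.57 ± 0.14), mfm3 (-0.55 ± 0.15) and map4 (-0.45 ± 0.10) the largest. After quantile normalization 1 marker was higher and 9 lower.

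Many of these fkh2-S2A calls were lost in fits that left 1 array in a group, where the test has less power. A lost call there need not mean that the change came from 1 array. With each array left out in turn, meu14 stayed between -0.416 and -0.375, par1 between 0.40 and 0.50 and sep1 between -0.62 and -0.45. Others moved more, as mam3 (-0.79 to -0.35), mfm3 (-0.735 to -0.371) and bgs2 (-0.705 to -0.408). Of the genes named, the calls lost without wild-type replicate 2 were those of par1, mid1, bgs2, meu14, mes1, sep1, mam3, mfm3 and map4, with adjusted p from 0.0511 for sep1 to 0.18 for mfm3. The calls of bgs2 and mfm3 were lost without fkh2-S2A replicate 1 as well, those of mid1, mam3 and map4 without fkh2-S2A replicate 2, and that of mfm3 with the length trend removed (-0.28, adjusted p = 0.22). The calls of pxl1, spo15, mcp4, mei2 and rec10 were kept in the 16 other settings.

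Compared directly, fkh2-S2A was lower than fkh2delta in 3 of the 7 septins and higher in 0 by limma (0 higher also at an unadjusted p below 0.05), against 26.6% and 22.5% of all probe sets, 49.1% in all. The arrays did not overlap for 6 of 7 septins, against 78.2% of all probe sets. The 3 called septins were spn6 (at least 6.55-fold lower, adjusted p = 9.35e-07, limma), spn7 (-2.40 ± 0.17, adjusted p = 1.15e-05) and spn2 (-0.78 ± 0.11, adjusted p = 0.00052). They are the septins in which fkh2delta stood above wild type and fkh2-S2A did not pass. The genes spn1 (-0.28 ± 0.13, adjusted p = 0.108; 95% interval -0.59 to 0.019) and spn4 (-0.27 ± 0.13, adjusted p = 0.114; 95% interval -0.57 to 0.024), which were called higher in both mutants, did not differ between the mutants beyond the test. Nor did spn3 (-0.062 ± 0.11, adjusted p = 0.679) or spn5 (0.24 ± 0.15, adjusted p = 0.212).

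Against the 22.5% and 26.6% of all probe sets, the ring list had 5 higher and 2 lower of 11 in this comparison, with pxl1 (-1.72 ± 0.11), eng1 (1.40 ± 0.11), mid2 (1.21 ± 0.11) and cdc15 (-1.07 ± 0.10) the largest. The forespore membrane list had 3 higher and 4 lower of 14, led by meu14 (-5.75 ± 0.09) and bgs2 (-1.36 ± 0.14), with mug27 at least 1.45-fold lower, a call lost after quantile normalization, and its3 0.58 ± 0.14 higher, a call lost without fkh2delta replicate 2 and without fkh2-S2A replicate 2. Over the 16 other settings 2 of the 7 forespore membrane calls were kept throughout. Besides mug27 and its3, the calls of spo3, spo14 and spo4 were lost in some. The regulator list had 2 higher and 5 lower of 11. Its largest were fkh2 (at least 5.43-fold higher), mcp4 (-2.06 ± 0.11), mei2 (-1.48 ± 0.12) and mde3 (at least 1.74-fold lower). Of the mating and early meiotic markers 0 of 21 were called higher (1 at an unadjusted p below 0.05) and 7 lower by limma, among them dmc1 (-3.35 ± 0.17), rec10 (-1.54 ± 0.12), map4 (-0.93 ± 0.10) and meu13 (at least 2.51-fold lower). After quantile normalization 5 were higher and 6 lower.

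The septins differed in which other genes had the most similar profile over the 6 arrays, measured as the distance between log2 values after each profile's own mean was taken off. Nearest to spn6 were crp79 (distance 0.462), cid11 (0.503) and the recombinase gene dmc1 (0.53). Nearest to spn7 were the meiotic recombination gene rec24 (0.443), the heat-shock gene hsp16 (0.519) and the spore gene isp3 (0.525). Of the 6 arrays, crp79 and isp3 were above background on 2 each and rec24 on 4. Their distances, and all those to spn6, therefore rest in part on values below background. Each of these genes had a fitted rise in fkh2delta, from 2.57 (rec24) to 3.51 (cid11), so the distances partly restate that rise. The 2 risen meiotic septins lay 1.15 from each other, and spn5 lay 4.41 from spn6 and 3.44 from spn7. Among the vegetative septins spn1 and spn4 were closest, at 0.23, and spn2 lay 0.672 from spn1 and 0.811 from spn4. The nearest genes were luc7, cbh2 and cct8 for spn1, the centrin gene cdc31, uch1 and skp1 for spn2, and ubp2, alp14 and zpr1 for spn4, at distances from 0.0712 to 0.141. The 3 names for spn6 stayed under all 3 other scalings, while for spn1, spn2, spn4 and spn7 1 of 3 stayed after quantile normalization. With the length trend removed 3 of 3 stayed for spn7, 1 of 3 for spn1 and 0 of 3 for spn2 and spn4.

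Genes next to the septins were read as a check of overlapping transcripts. In the annotation 4 septins overlap a coding gene: spn6 the Dicer gene dcr1, spn7 the kinase gene ppk24, spn2 moc3 and spn3 SPBC16A3.02C, the last not analysed here. In fkh2delta dcr1 rose by 0.94 and ppk24 by 0.87, less than spn6 and spn7, and both calls were lost after quantile normalization. The gene moc3 fell by 0.30 (adjusted p = 0.044, limma) while spn2 rose. Of the measured neighbours that do not overlap, otu1 next to spn5 fell by 1.26, mnn9 next to spn1 fell by 0.36 and trm61 next to spn4 rose by 0.36, while fta1 next to spn1 (-0.11, adjusted p = 0.368) and prp45 next to spn6 (-0.030, adjusted p = 0.861) did not pass. In fkh2-S2A ppk24 was called higher (0.37, adjusted p = 0.0268, limma), in the comparison where spn7 just missed the threshold. That call was lost after quantile normalization (0.16, adjusted p = 0.305). Also called in fkh2-S2A were trm61 (0.44), moc3 (-0.37) and otu1 (-0.62), while dcr1 did not pass (0.26, adjusted p = 0.191). These neighbours were named after their values were seen. Where the probes lie within each gene was not known, and whether a septin probe set also read an overlapping transcript was not tested.

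**Figure D5:**
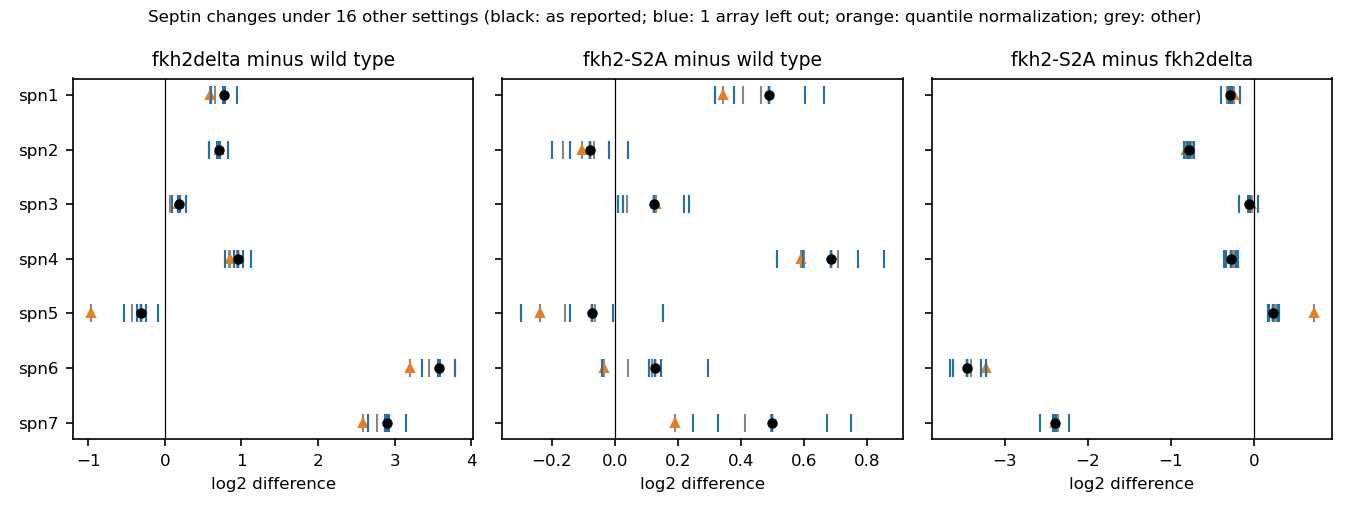
Log2 difference of each septin gene as reported (black) and under 16 other settings, among them each array left out in turn (blue) and quantile normalization (orange), in the 3 comparisons; the 3 axes have different ranges. In fkh2delta spn7 stayed between 2.58 and 3.15. The fitted difference of spn6, no measure of size with wild type below background, stayed between 3.20 and 3.79. In fkh2-S2A spn1 ran from 0.32 to 0.66 and spn4 from 0.51 to 0.85.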

How the data were processed

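The deposited table gives each array 1 log2 value for every probe set. The base 2 is an inference from how far the values reach, and how the authors summarised probes, and with which program, was not known. The values were used as deposited, without a pseudocount. Of 10928 probe sets 213 were controls, 5538 were annotated and 5177 are unnamed here. Annotated genes were matched to assembly ASM294v3 by Entrez identifier or exact symbol, giving 2936 S. pombe probe sets (2917 with 1 gene).

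One limma 3.58.1 model in R 4.3.3 took in the 6 arrays, with the genotype group and no other term (3 residual and 5.73 prior degrees of freedom, two-sided tests), and the steps were tested on simulated data. The number of arrays limits the precision. The members and lists were chosen with earlier results of these data known. The text names all 7 septins, the 4 listed genes with the largest absolute change per list and comparison, and the 3 nearest profiles of each called septin; M-cell, P-cell and early meiotic markers count as 1 list for this. Sequences were not used here, and 2 genes of the septin ring list are not reported here. Alternatives were 3 other scalings, leaving out dim probe sets, testing the whole table, mean-variance trend and robust priors, fitting 2 groups alone, weighting arrays, blocking on replicate number, and dropping each array in turn.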

Additional observations from a re-analysis of the deposited data

How the results depend on the processing

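Over 16 other settings, the rises of spn1, spn2, spn4, spn6 and spn7 in fkh2delta and the lower spn2, spn6 and spn7 in fkh2-S2A against fkh2delta kept their direction and call. Quantile normalization moved the meiotic median in fkh2delta from 2.90 to 2.58 and left 1 septin called in fkh2-S2A in place of 2; it turned mug27 (-0.0042), mei4 (-0.49) and spo4 (-0.19) in fkh2delta, and spn6 (-0.034) and fkh2 (-0.12) in fkh2-S2A. Median centring gave a vegetative median of -0.24 for fkh2-S2A against fkh2delta in place of -0.28. A test over all probe sets of the table called 3352 in fkh2delta and 2315 between the mutants, in place of 1879 and 1441; more were tested.

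With 1 array left out, the number of called septins ran from 5 to 6 in fkh2delta and from 0 to 3 in fkh2-S2A and was 3 between the mutants, and the vegetative median ran from 0.59 to 0.88, from 0.17 to 0.44 and from -0.38 to -0.18. The calls over all probe sets in fkh2-S2A ran from 287, without wild-type replicate 2, to 921. Differences near 0 that had not passed changed sign over these fits: in fkh2-S2A, spn2 ran from -0.20 to 0.040, spn5 from -0.30 to 0.15 (both highest without wild-type replicate 1) and spn6 from -0.040 (without fkh2-S2A replicate 2) to 0.29. In fkh2delta gef3 ran from -0.20 to 0.0029 (without fkh2delta replicate 1), and between the mutants spn3 ran from -0.17 to 0.050 (without fkh2-S2A replicate 1). A group left with 1 array is assumed to vary like the others. Beyond these constructions the cause was not tested.

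The labels give the groups the same replicate numbers, but the differences between replicates 1 and 2 correlated at -0.18, -0.085 and -0.27 between groups, so the numbers were not taken to pair arrays. With the replicate number as a block, 5, 2 and 3 septins were called, as without it. Values near background, as for spn5, limit what can be read from a small difference.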
